A study of Mus musculus with 6 samples.

Results

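The Oas family was examined in RNA-seq of colon tumors induced by azoxymethane and dextran sulfate sodium (AOM/DSS). Its members were taken by gene name: Oas1a, Oas1g, Oas2, Oas3, Oasl1 and Oasl2, 6 of the 54532 genes listed. Tumors came from 3 Tmem173fl/fl mice (titled AOM_WT) and 3 Tmem173iΔmye mice (titled AOM_CRE), all on the C57BL/6N background. Mice of both groups carry Tmem173, the gene encoding STING, flanked by loxP sites, and both received tamoxifen once 3 cycles of AOM/DSS had been completed. The Tmem173iΔmye mice carry in addition Lyz2-Cre ert2, a tamoxifen-dependent Cre driven by the lysozyme gene of macrophages, neutrophils and part of the dendritic cells, so that Tmem173 is left intact in epithelial, stromal and lymphoid cells. The mice labelled WT are therefore floxed mice and not unmodified ones. The study's methods give age ranges for tamoxifen and for its other models, but the age of the mice with deletion after tumor formation, their sex and whether tumors were pooled per mouse are not given in the sources used here.

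OAS proteins are synthetases that recognise double-stranded RNA and then join ATP into short oligoadenylates with an unusual linkage. These oligoadenylates are second messengers of the antiviral response. Interferon induces the Oas genes through the interferon-stimulated response element (ISRE) of their promoters, and Oas transcripts are therefore used as a reading of interferon signalling in the gut as elsewhere.

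Both Oasl genes lie side by side on the plus strand of chromosome 5 of GRCm38, Oasl2 from 114896936 to 114912234 and Oasl1 from 114923240 to 114937915. The other members lie in a second cluster of the same chromosome on the minus strand. These are Oas2 (120730333 to 120749853), Oas3 (120753098 to 120777661), Oas1g (120876142 to 120887613) and Oas1a (120896256 to 120907521). RefSeq promoter sequences of GRCm38.p6 were found for 5 of the 6 members, and the 250 bases before the start of each were searched for the ISRE core GAAANNGAA on both strands. It was present before Oas1a, Oas1g and Oas3, as 2 overlapping matches in each, and among all 32851 promoters 7.13% held it. The last 120 bases before the start are shown because the members with and without this core differ in them, with the core in capitals. A match is a description of the letters and not of a bound site. A missing match in these 250 bases does not show that a gene has no ISRE.
Oas1a (chr5:120907526-120907645, minus strand): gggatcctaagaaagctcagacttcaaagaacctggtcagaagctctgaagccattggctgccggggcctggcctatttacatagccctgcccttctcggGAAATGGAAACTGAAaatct
Oas1g (chr5:120887614-120887733, minus strand): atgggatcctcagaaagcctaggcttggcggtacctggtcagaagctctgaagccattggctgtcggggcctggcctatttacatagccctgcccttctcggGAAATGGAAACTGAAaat
Oas3 (chr5:120777660-120777779, minus strand): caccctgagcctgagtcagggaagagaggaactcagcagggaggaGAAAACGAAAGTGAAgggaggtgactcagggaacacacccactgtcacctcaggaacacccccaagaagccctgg
Oasl1 (chr5:114923120-114923239, plus strand): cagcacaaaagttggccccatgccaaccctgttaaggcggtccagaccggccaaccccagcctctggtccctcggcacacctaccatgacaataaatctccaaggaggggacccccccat
Oasl2 (chr5:114896814-114896933, plus strand): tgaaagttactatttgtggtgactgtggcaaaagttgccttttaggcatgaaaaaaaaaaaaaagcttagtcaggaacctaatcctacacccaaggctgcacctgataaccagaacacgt

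The windows of Oas1a and Oas1g shared an identical stretch of 56 bases, whereas no other pair of these 5 windows shared more than 9. In Oas1a and Oas1g the core lies within the last 20 bases before the start, and in Oas3 it lies from 75 to 61 bases before it. The gamma-activated sequence TTCNNNGAA was found once, before Oas1a, and 7.02% of all promoters held it. Oas1a and Oas1g are also close copies in their transcripts. Of the 100-base stretches in the GENCODE M21 transcripts, 40.9% of those of Oas1a occurred in Oas1g and 31.2% of those of Oas1g in Oas1a, so the split of reads between these genes is uncertain. The transcripts of the other 4 members shared no such stretch with another Oas gene.

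Levels of different genes were compared as FPKM, which is per gene length. Over the 6 tumors, the mean FPKM was 22.4 for Oas1a, 12.7 for Oasl1, 9.31 for Oasl2, 8.02 for Oas1g, 3.42 for Oas2 and 2.84 for Oas3. Oas1a was above Oasl1, Oas1g above Oas2 and Oas2 above Oas3 in all 6 tumors. Oasl1 was above Oasl2 in 5 of 6 tumors and Oasl2 above Oas1g in 3 of 6, so the place of Oasl2 in this order was within the spread between tumors.

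The comparison of the genotypes asks how deletion of STING in myeloid cells after tumor formation goes with expression in the tumor. For all 6 Oas genes the mean level was higher in Tmem173iΔmye tumors, by 1.53-fold to 3.57-fold. Oas3, Oas2 and Oasl2 differed most and Oas1g, Oas1a and Oasl1 least. No member passed an adjusted p of 0.05. Because whole tumors were sequenced, more cells that express a gene and more RNA per cell cannot be told apart.

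Oas3, which encodes the largest synthetase and responds to long double-stranded RNA, had FPKM values of 1.75, 1.45 and 0.531 in Tmem173fl/fl replicates 1, 2 and 3 and of 6.98, 2.33 and 4.003 in the Tmem173iΔmye replicates. Every Tmem173iΔmye tumor was above every Tmem173fl/fl tumor, with the highest value in Tmem173iΔmye replicate 1. Its log2 fold change for Tmem173iΔmye over Tmem173fl/fl was 1.83 (SE 0.51, unadjusted p = 0.00757, adjusted p = 0.742 from edgeR).

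Oas2, a synthetase built of repeated OAS units, had FPKM values of 2.23, 2.18 and 0.576 in the Tmem173fl/fl and 7.17, 3.65 and 4.69 in the Tmem173iΔmye tumors. The groups did not overlap, and Tmem173fl/fl replicate 3 was again the lowest tumor. The log2 fold change was 1.64 (SE 0.49, unadjusted p = 0.0108, adjusted p = 0.742 from edgeR).

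Oasl2, an OAS-like protein with ubiquitin-like domains that retains synthetase activity in the mouse, had FPKM values of 6.98, 4.94 and 2.36 in the Tmem173fl/fl and 22.6, 9.34 and 9.62 in the Tmem173iΔmye tumors. The groups did not overlap, and Tmem173iΔmye replicate 1 stood 2.38-fold above the mean of the other two Tmem173iΔmye tumors in counts scaled to the library total (CPM). The log2 fold change was 1.54 (SE 0.47, unadjusted p = 0.0115, adjusted p = 0.742 from edgeR).

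Oas1a, an active synthetase and the member with the highest level, had FPKM values of 22.3, 15.6 and 12.5 in the Tmem173fl/fl and 37.2, 22.4 and 24.5 in the Tmem173iΔmye tumors. Tmem173fl/fl replicate 1 and Tmem173iΔmye replicate 2 were nearly level, and which of them was higher depended on the scale: the groups did not overlap in FPKM but overlapped in CPM, at 42.7 and 42.5. The log2 fold change was 0.74 (SE 0.27, unadjusted p = 0.0275, adjusted p = 0.742 from edgeR).

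Oas1g, its close copy, had FPKM values of 8.04, 4.34 and 4.995 in the Tmem173fl/fl and 13.1, 7.93 and 9.66 in the Tmem173iΔmye tumors. The groups overlapped through Tmem173fl/fl replicate 1. The log2 fold change was 0.82 (SE 0.29, unadjusted p = 0.0238, adjusted p = 0.742 from edgeR), and with all Oas1 genes summed into 1 count, which removes the split between the copies, it was 0.76 (adjusted p = 0.743 from edgeR).

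Oasl1, an OAS-like protein without synthetase activity that restrains translation of Irf7, had FPKM values of 13.7, 7.25 and 9.01 in the Tmem173fl/fl and 21.8, 11.001 and 13.2 in the Tmem173iΔmye tumors. Tmem173fl/fl replicate 1 lay above Tmem173iΔmye replicates 2 and 3. The log2 fold change was 0.61 (SE 0.32, unadjusted p = 0.0940, adjusted p = 0.742 from edgeR).

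**Figure D1:**
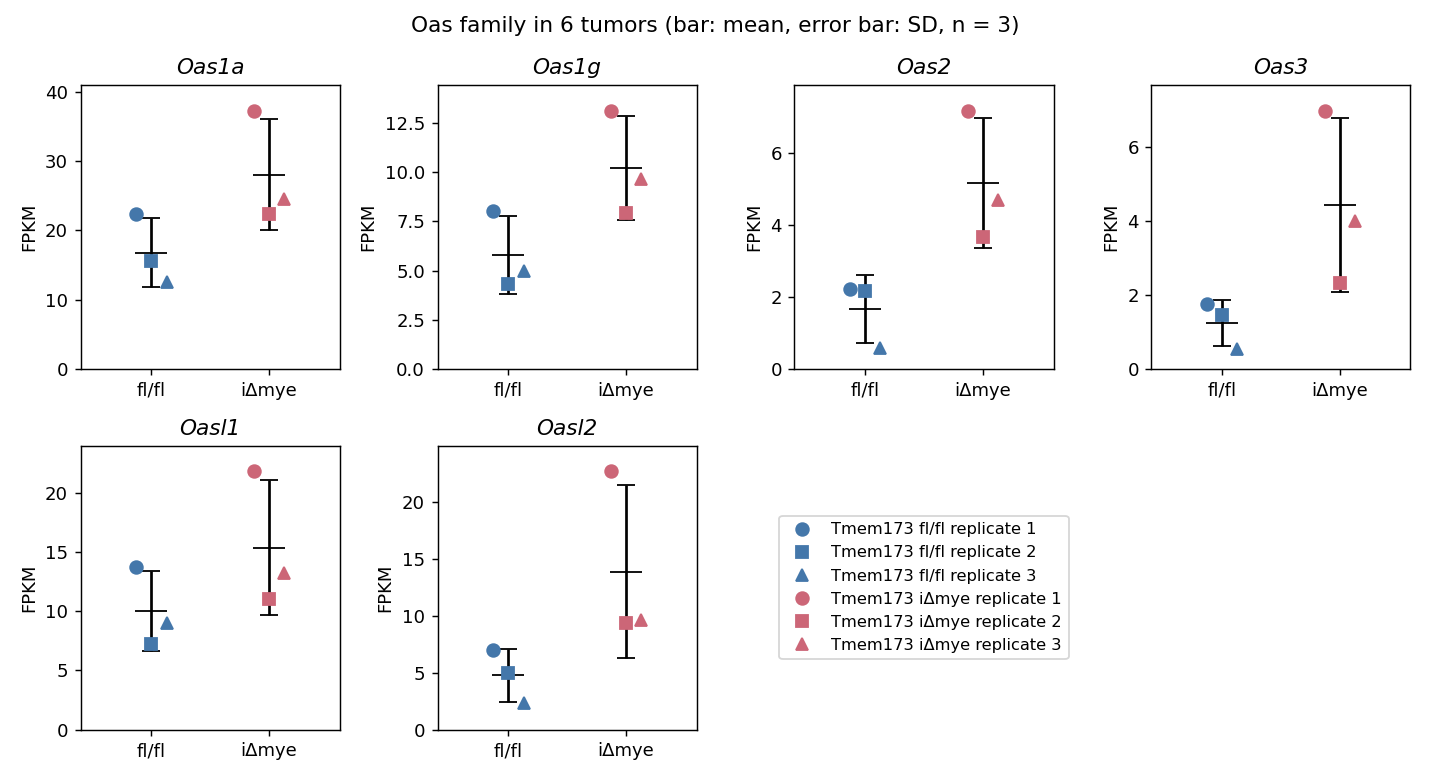
FPKM (y axis, linear, from 0, a scale of its own in each panel) of the 6 Oas genes in each tumor, by genotype of Tmem173 (x axis); horizontal marks are means and error bars SD of 3 tumors. Tmem173iΔmye replicate 1 is the highest tumor for each of the 6 Oas genes, and the groups do not overlap for Oas1a, Oas2, Oas3 and Oasl2 on this scale.

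The fit covered 16426 genes, those whose FPKM averaged 0.5 or more over the tumors. With edgeR, 0 of them (0%), and so 0 members, reached an adjusted p under 0.05, while 1008 had an unadjusted p of at most 0.05. With DESeq2, 28 genes reached it but 0 members, the nearest being Oas3 (adjusted p = 0.0668 from DESeq2). An unadjusted p of at most 0.05 with a higher level in Tmem173iΔmye tumors was found for 5 of the 6 members and for 3.23% of all genes tested. Both limits of the study's methods, a log2 fold change of 1 or more in size together with an unadjusted p no higher than 0.05, were passed by 3 members, Oas2, Oas3 and Oasl2, all higher in Tmem173iΔmye tumors. Among all genes tested 2.12% passed both limits, and 1.26% did so with the higher level in Tmem173iΔmye tumors. In CPM, the groups did not overlap for the same 3 members, and 6.03% of all genes tested were higher in Tmem173iΔmye tumors without overlap. The median log2 fold change of the 6 members was 1.18, against -0.0042 for all genes tested.

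The size of the difference depended on single tumors. Without Tmem173iΔmye replicate 1, the tumor with the highest level of every member, the median of the members was 0.79, the log2 fold change of Oasl2 was 0.99 and only Oas2 (1.33) and Oas3 (1.35) passed both limits. In that fit the log2 fold change was 0.48 for Oas1a, 0.60 for Oas1g and 0.27 for Oasl1. Without Tmem173fl/fl replicate 1, the highest of its group for all 6 genes, 5 members passed both limits, all but Oasl1, and the median was 1.53. All 6 log2 fold changes stayed above 0 whichever tumor was left out.

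Reads of Y-linked genes (Uty, Kdm5d, Eif2s3y and Ddx3y) were present in Tmem173fl/fl replicate 1 and in Tmem173iΔmye replicates 1 and 2. At most 2 such reads were counted in each other tumor. Xist was counted 6, 20088 and 26549 times in the Tmem173fl/fl and 2, 11 and 19712 times in the Tmem173iΔmye tumors. It was low in the tumors with Y-linked reads and high in the others. The groups differed in the number of tumors with Y-linked reads, so genotype is partly confounded with this division. Among the tumors with Y-linked reads, Oas3 had a CPM of 12.5 in the Tmem173fl/fl tumor against 49.5 and 16.6 in the Tmem173iΔmye tumors. Among those without, it had 10.2 and 3.78 against 28.5. Oas2 and Oasl2 were likewise higher in every Tmem173iΔmye tumor on both sides of this division. The groups did not overlap for Oas2, Oas3 and Oasl2, so every division of the tumors gives that order for them. In the tumors with such reads, Tmem173iΔmye replicate 2 lay below the Tmem173fl/fl tumor for Oas1a, Oas1g and Oasl1. For Oasl1 the CPM was 36.4 in that Tmem173fl/fl tumor against 57.0 and 28.9 in the Tmem173iΔmye tumors. In the tumors without such reads, Oas1a, Oas1g and Oasl1 were higher in the Tmem173iΔmye tumor. With Y-linked reads as a covariate the log2 fold changes were 1.52 for Oas2, 1.71 for Oas3 and 1.29 for Oasl2, and these 3 genes passed both limits as before (adjusted p = 1 for each from edgeR).

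Totals ranged from 15329810 to 16533732 counts per tumor. Tmem173 itself, on chromosome 18, was counted 1748, 2911 and 1705 times in the Tmem173fl/fl tumors and 2291, 2245 and 1953 times in the Tmem173iΔmye tumors, so its level in whole tumor RNA does not check the genotype labels. The share of counts on mitochondrial genes was 2.504% to 3.52% in the Tmem173fl/fl and 2.36% to 2.84% in the Tmem173iΔmye tumors, and that on ribosomal protein genes 2.91% to 4.15% and 3.74% to 5.32%, highest in Tmem173iΔmye replicate 1.

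The summed FPKM of the 6 Oas genes was 55.1, 35.7 and 29.97 in the Tmem173fl/fl and 109.0, 56.6 and 65.7 in the Tmem173iΔmye tumors. The means were 40.2 ± 13.1 (SD, n = 3) and 77.1 ± 28.0 (SD, n = 3), and the lowest Tmem173iΔmye tumor lay just above the highest Tmem173fl/fl tumor. The make-up of this sum also differed, as a description without a test. Oas1a held 41.9% ± 1.54 (SD, n = 3) of it in Tmem173fl/fl and 37.0% ± 2.68 (SD, n = 3) in Tmem173iΔmye tumors, and Oasl1 held 25.1% ± 4.88 (SD, n = 3) and 19.9% ± 0.380 (SD, n = 3). The share of Oasl2 was 11.5% ± 3.16 (SD, n = 3) and 17.3% ± 3.14 (SD, n = 3), that of Oas2 4.02% ± 2.09 (SD, n = 3) and 6.72% ± 0.370 (SD, n = 3) and that of Oas3 2.999% ± 1.15 (SD, n = 3) and 5.54% ± 1.25 (SD, n = 3). The groups did not overlap in these 5 shares, although the shares of Oas3 in Tmem173fl/fl replicate 2 (4.05%) and Tmem173iΔmye replicate 2 (4.11%) were almost the same. The share of Oas1g overlapped, at 14.5% ± 2.26 (SD, n = 3) and 13.6% ± 1.38 (SD, n = 3). The shares add up to the whole in each tumor, so higher shares of some members lower those of others. They come from the same FPKM values as the levels above and are not a separate result.

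**Figure D2:**
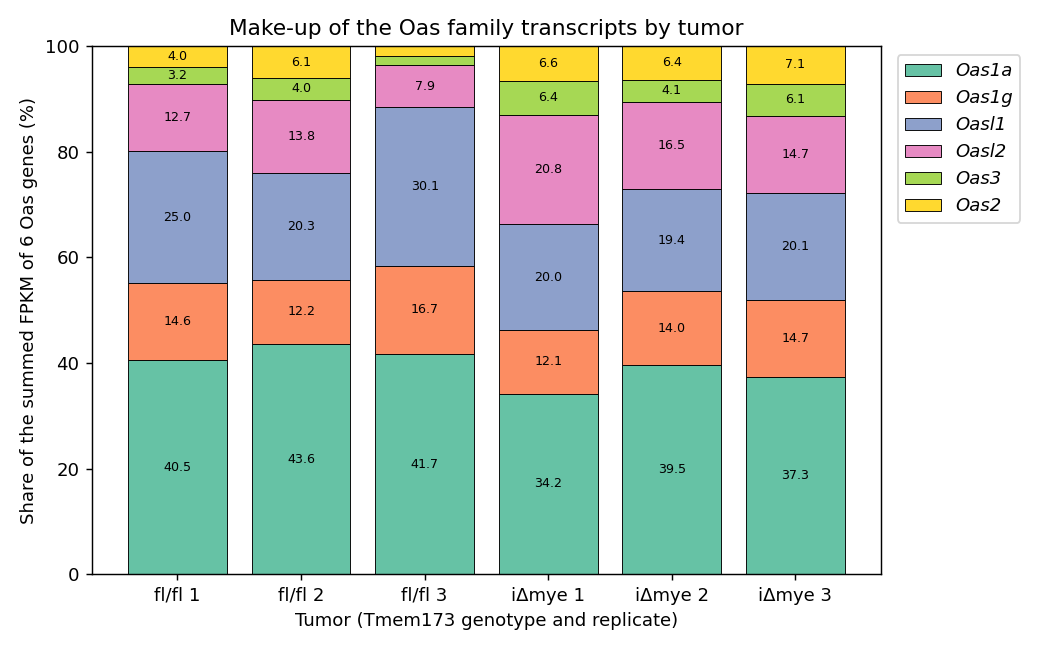
Share of each Oas gene in the summed FPKM of the 6 genes (y axis, percent) for each tumor (x axis); each bar is 1 tumor and adds up to 100, and shares over 2.5 are printed. Oas1a is the largest part of every tumor, from 34.2 to 43.6%, and Oasl2, Oas2 and Oas3 together take more of each Tmem173iΔmye tumor than of any Tmem173fl/fl tumor.

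Pairs of members kept their ratio to different degrees. The FPKM of Oas2 was 1.08 to 1.51 times that of Oas3 in the Tmem173fl/fl and 1.03 to 1.57 times in the Tmem173iΔmye tumors, and that of Oas1g was 0.279 to 0.400 and 0.353 to 0.395 times that of Oas1a. The ratio of Oasl2 to its neighbour Oasl1, by contrast, was 0.508, 0.681 and 0.262 in the Tmem173fl/fl and 1.04, 0.849 and 0.728 in the Tmem173iΔmye tumors, without overlap. Across the 6 tumors, Pearson's r of log2(CPM + 1) was highest between Oas1a and Oasl2 (0.983) and lowest between Oas2 and Oasl1 (0.699). These coefficients describe 6 tumors that share the difference between the groups.

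The genes listed under oligoadenylate turnover did not pass the limits. Pde12 and Akap7, enzymes that degrade oligoadenylates, had log2 fold changes of -0.093 (SE 0.18) and 0.088 (SE 0.19), and Abce1, an ATP-binding protein of ribosome recycling, differed by -0.018 on the log2 scale (SE 0.20). The groups overlapped for each of them.

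Of the 6 further Oas1 genes of the cluster, Oas1b and Oas1c were expressed above the filter. Oas1b, which in most laboratory mouse strains is cut short by a stop codon and is listed as a polymorphic pseudogene, was counted 58, 42 and 44 times in the Tmem173fl/fl tumors and 144, 61 and 126 times in the Tmem173iΔmye tumors. The groups did not overlap, and the difference passed both limits, with log2 fold change 1.18 (SE 0.37; edgeR adjusted p = 0.742). Without Tmem173iΔmye replicate 1 it was 0.95 (unadjusted p = 0.0513, adjusted p = 0.9997 from edgeR). Oas1c differed by 0.27 on the log2 scale (SE 0.29), with overlapping groups. Oas1d, Oas1e and Oas1f had at most 3 counts in any tumor and Oas1h 5 to 11.

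Among the 10 genes of double-stranded RNA sensing, 2 passed both limits, both higher in Tmem173iΔmye tumors, as were 1.26% of all genes tested. Dhx58, which encodes the RIG-I-like receptor LGP2, was counted 162, 115 and 129 times in the Tmem173fl/fl tumors and 417, 187 and 253 times in the Tmem173iΔmye tumors, without overlap. Its log2 fold change was 1.06 (SE 0.32, adjusted p = 0.742 from edgeR). Zbp1, a sensor of left-handed nucleic acid, also passed both limits at 1.39 (SE 0.57), but its 3150 counts in Tmem173iΔmye replicate 1 stood far above the 427 to 975 of the other 5 tumors. Ifih1, encoding MDA5, had a log2 fold change of 0.33 (SE 0.15), also without overlap. Eif2ak2, encoding the double-stranded RNA-dependent kinase PKR, had 0.018 (SE 0.20), from 904, 1073 and 896 reads in the Tmem173fl/fl tumors and 1233, 767 and 946 in the Tmem173iΔmye tumors. The median of this list was 0.15.

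Of the 8 interferon ligand genes none passed the filter on low values. Ifna1, Ifna2, Ifna4, Ifna5 and Ifnl3 had 0 counts in every tumor, and Ifnb1 and Ifnl2 at most 1. Ifng, named after its values were seen, had 50 counts in Tmem173iΔmye replicate 1, the tumor highest for all 6 Oas genes, and at most 3 in each other tumor. Its part in the Oas levels was not tested.

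Of the 16 genes of interferon receptors and signalling, 1 passed both limits, against 2.12% of all genes tested. This was Usp18, a protease that removes ISG15 and restrains the type I interferon receptor, with a log2 fold change of 1.013 (SE 0.26). Irf7, which amplifies interferon production, had 0.95 (SE 0.32) with overlapping groups, and 0.59 without Tmem173iΔmye replicate 1. Irf9, a transcription factor of the interferon response, had 0.47 (SE 0.15) without overlap, and 0.34 without that tumor. For the receptor gene Ifngr1 the log2 fold change was 0.0030 (SE 0.22). Of the 7 genes of the cGAS-STING pathway, 0 passed both limits. Ikbke, a kinase of this pathway, had 0.36 (SE 0.14) and Irf3, its transcription factor, 0.23 (SE 0.14), both without overlap. Rela had -0.10 (SE 0.13) and Tmem173 0.0015 (SE 0.24). Without Tmem173iΔmye replicate 1, 0 genes of all these lists passed both limits, against 4 with it. The 4 did not depend on that tumor to the same degree: without it the log2 fold change was 0.93 for Usp18 (unadjusted p = 0.0166, adjusted p = 0.9997 from edgeR), just under the limit of 1, and 0.95 for Oas1b, but 0.69 for Dhx58 and 0.45 for Zbp1.

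**Figure D3:**
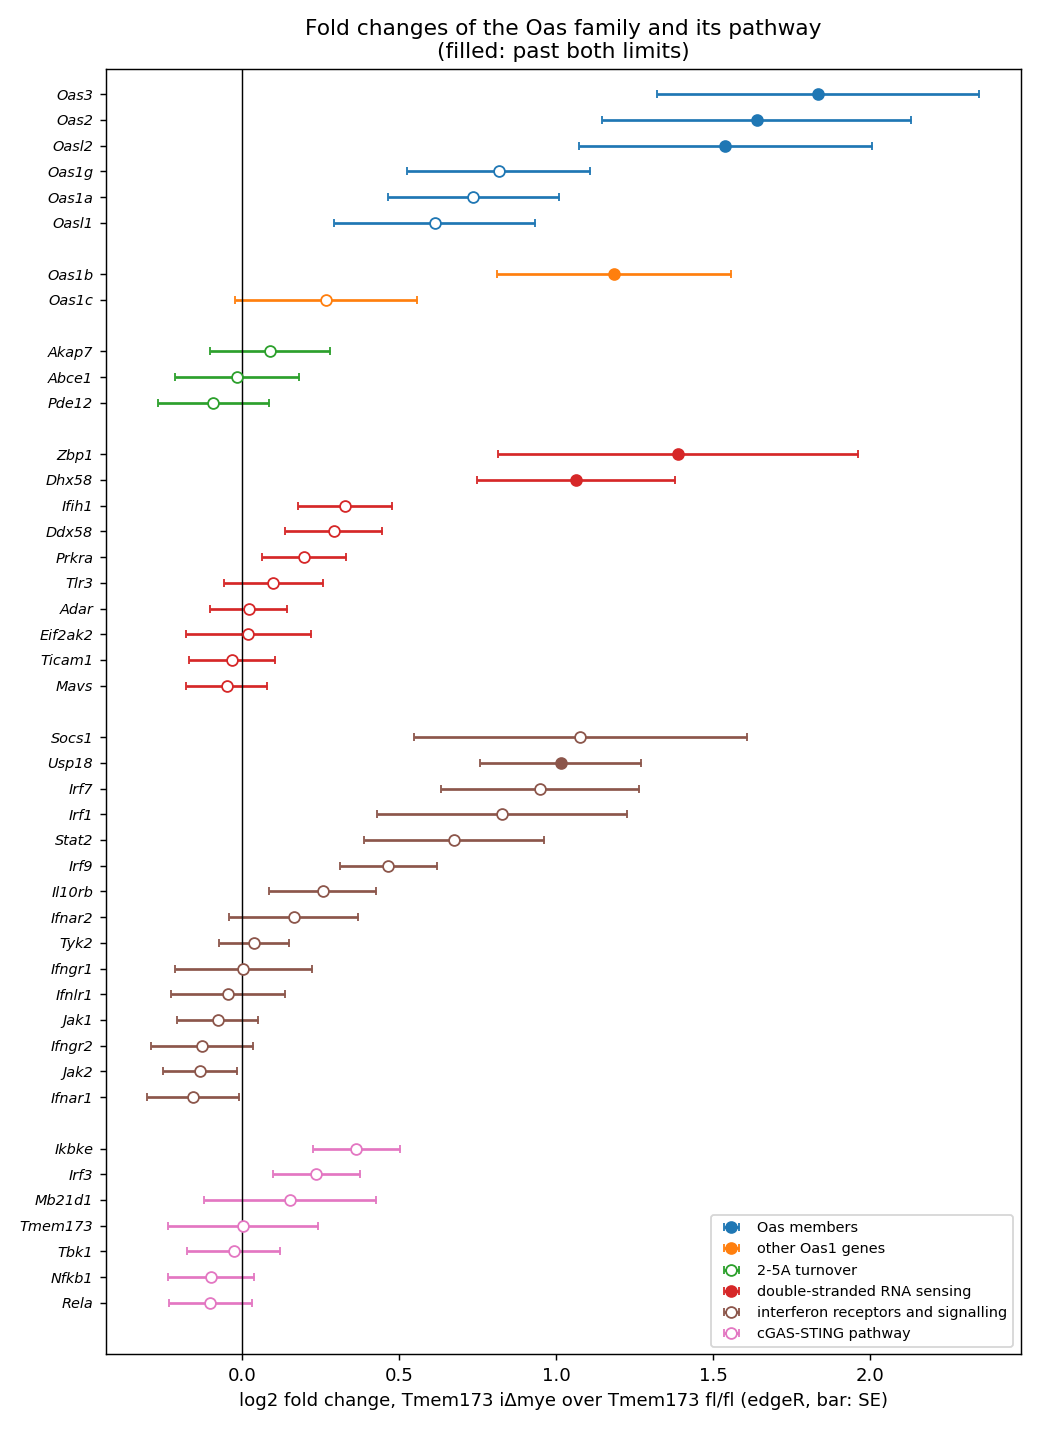
log2 fold change for Tmem173iΔmye over Tmem173fl/fl (x axis) with its SE (bars) for the 6 Oas genes and tested genes of the pathway lists (y axis, colored by list, 3 tumors per group); filled points passed both limits. All 6 Oas genes lie above 0, from 0.61 to 1.83. The genes listed under turnover (Pde12, Akap7 and Abce1) lie between -0.093 and 0.088.

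Marker genes of other cell types were summed as CPM in each tumor. The sum of 6 natural killer cell markers was 1.53 to 4.36 in the Tmem173fl/fl and 5.36 to 8.59 in the Tmem173iΔmye tumors. The groups did not overlap for 2 of these 6 genes. Only 2 of the 6 passed the filter on low values, so this sum rests on few reads. The sum of 6 plasma cell markers (Jchain, Mzb1, Sdc1, Xbp1, Tnfrsf17 and Derl3) was 789.6 to 904.7 and 933.9 to 1279, also with 2 of 6 genes not overlapping. Among all genes tested, 6.03% were higher in Tmem173iΔmye tumors without overlap. Natural killer and plasma cell markers were the 2 of 12 marker lists whose sums did not overlap. The epithelial sum was 8490 to 9705 and 9250 to 10650, the macrophage sum 222 to 271 and 230 to 338, the T cell sum 10.1 to 21.5 and 15.7 to 29.0 and the endothelial sum 72.5 to 77.9 and 77.8 to 97.6, each highest in Tmem173iΔmye replicate 1. Neutrophil markers summed to 329 in that tumor and to 31.3 to 113 in the other 5. The remaining 5 lists were not highest in that tumor. The sum of the list for plasmacytoid dendritic cells (Siglech, Ccr9, Tcf4, Spib, Klk1 and Bcl11a) was lowest there, at 248 against 370 to 453 in the other 5 tumors. It lay far above the sum of the dendritic cell markers in every tumor, so it cannot be taken as the amount of these cells. Dendritic cell markers (17.1 to 31.3 and 26.6 to 36.0) and fibroblast markers (1740 to 2208 and 1787 to 2645) were highest in Tmem173iΔmye replicate 2. Only 1 of the 6 dendritic cell markers passed the filter on low values. B cell markers (2.76 to 134.8 and 5.998 to 68.7) and smooth muscle markers (287 to 411 and 208 to 368) were highest in Tmem173fl/fl replicate 1. None of the markers in these lists was at 0 in all tumors. The part of these cells in the Oas levels was not tested.

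To find the genes most like the family, the 16420 other genes tested were compared with the mean centred log2(CPM + 1) of the 6 members over the 6 tumors. A Pearson's r of at least 0.95 was reached by 104 genes, and one at least as strong with the opposite sign by 107. With 6 tumors and so many genes such values carry no test. Genes picked in this way share the peak of the members in Tmem173iΔmye replicate 1 and their higher mean in Tmem173iΔmye tumors by the choice itself. The 10 genes with the highest r, from 0.989 to 0.997, were Cetn3, 1700021F05Rik, Gripap1, Irf9, Phlda1, Rtp4, Psmg2, Ifi44, Isg15 and Rpia. Rtp4, Ifi44, Isg15 and Irf9 are known interferon-induced genes. Tmem173iΔmye tumors were higher by a log2 fold change of 2.06 (SE 0.82) for Isg15, a ubiquitin-like protein, 1.93 (SE 0.55) for Ifi44 and 1.34 (SE 0.45) for Rtp4. Cetn3, a centrin, was the most alike but differed by 0.30 on the log2 scale (SE 0.14), and its CPM ran from 36.0 to 53.1. Among the members themselves, r with this mean, which includes them, ran from 0.867 for Oasl1 to 0.992 for Oasl2.

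**Figure D4:**
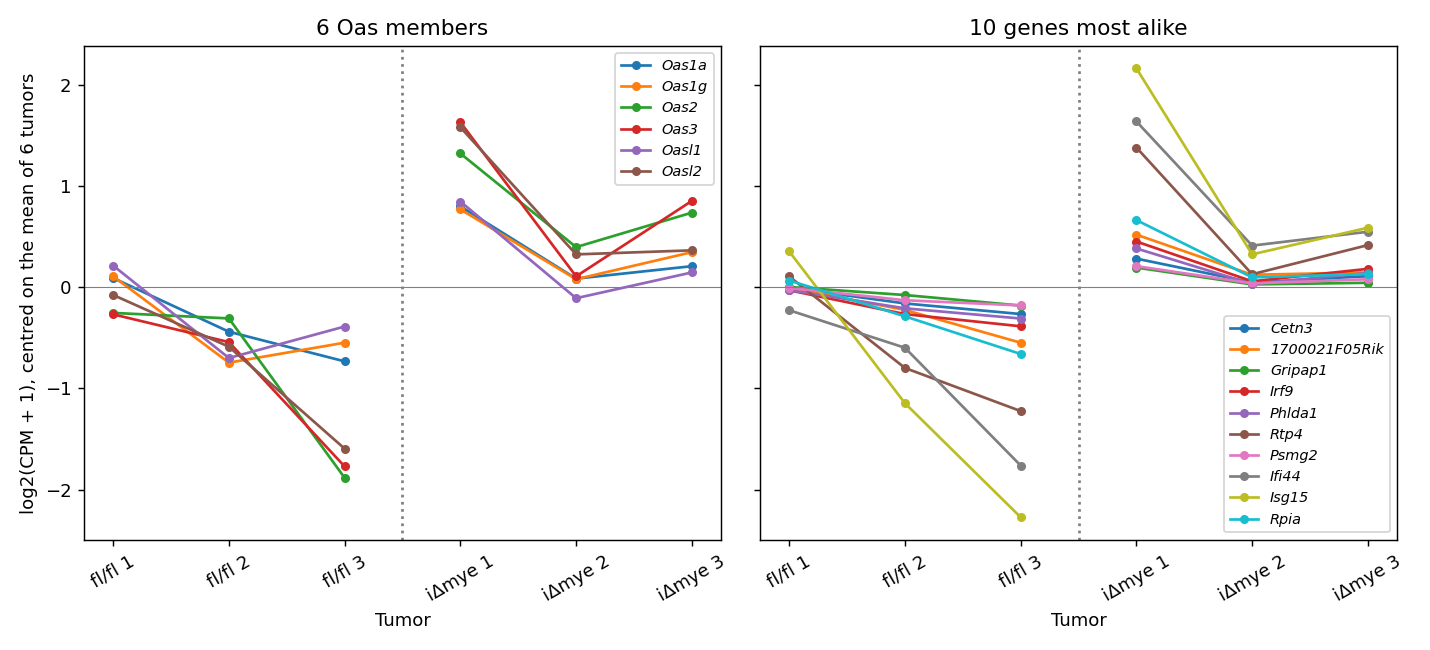
log2(CPM + 1) centred on the mean of the 6 tumors (y axis) for the 6 Oas genes (left) and the 10 other genes with the highest correlation to their mean (right), by tumor (x axis); each line is 1 gene and the dotted line parts the groups. Tmem173iΔmye replicate 1 is the highest tumor of every line, and the spread between tumors is small for Cetn3 and wide for Isg15. For the 10 genes on the right this peak follows from how they were picked.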

How the data were processed

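Total tumor RNA, selected for polyA, was sequenced in 6 tumors. The deposited counts are the authors' raw numbers of reads per gene. The deposited FPKM values were made by the authors from these counts. The submitters' processing notes name CASAVA 1.8, fastp, HISAT2 2.0.5, featureCounts 1.5.0-p3 and DESeq2 1.20.0 and the build GRCm38. Strand and multi-mapping settings are not given in the sources used here, so reads of close copies may be lost or split. The table also holds 5 columns of the authors' own comparison (group means, fold change and p-values), which were not used.

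Genes whose FPKM averaged 0.5 or more were kept, and their counts were tested with edgeR 4.0.16 in R 4.3.3 (quasi-likelihood test, TMM scaling, genotype as the only term, Benjamini-Hochberg adjustment over all genes tested). The SE of a log2 fold change was derived from it and its F statistic (size over root F). CPM uses the same scaling. Each group had 3 samples. The p-values weigh the difference between the groups against the spread between samples within them, estimated with information shared across genes. Alternatives were other filters and scalings, DESeq2 1.42.0, limma 3.58.1 on log2(FPKM + 1) and log2(FPKM + 0.1), the replicate number as a block, Y-linked reads as a covariate, summed Oas1 counts and leaving out each tumor.

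The members, gene lists and tests were chosen with earlier results of these data known. Named genes are the members, the 3 genes with the smallest p and the 1 with the largest p of each pathway list, and the 10 genes most correlated with the members; 2 genes of the pathway lists are not reported here. Promoters are RefSeq sequences of GRCm38.p6, and gene positions of the table matched GENCODE M21 for every Oas gene. Same-numbered tumors deviated from their group means with correlations of 0.315, 0.0085 and 0.154 across genes. Their mean was 0.159, above the pairing limit of 0.1, against -0.079 for tumors of different number. Under the division by Y-linked reads, tumors of the same number fall together for numbers 1 and 3 but not for number 2. The part of this division in the correlations was not tested. The correlations do not settle whether the numbers are pairs. The main fit therefore left the numbers out, and a fit with them as a block is given as an alternative.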

Additional observations from a re-analysis of the deposited data

How the results depend on the processing

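All 6 members had a log2 fold change above 0 under every alternative, and none passed an adjusted p of 0.05 under any. The 349 genes past both limits became 872 without a filter, 131 with limma on log2(FPKM + 1) and 211 with Y-linked reads as a covariate, and 218 to 636 when a tumor was left out. The 4 pathway genes past both limits became 7 without a filter, 0 and 1 with limma on log2(FPKM + 1) and log2(FPKM + 0.1), 1 with Y-linked reads as a covariate and 0 to 7 when a tumor was left out. Some of these fits test other genes or fewer tumors, and the cause was otherwise not tested. The members past both limits ranged from 2 to 5 when a tumor was left out, and Oas2, Oas3 and Oasl2 passed in each other fit. When a tumor was left out, the members' median log2 fold change ran from 0.79 to 1.53. When replicate numbers entered as a block, 377 genes passed both limits, 251 higher and 126 lower, and 270 of them also passed without it. In that fit Oas2, Oas3 and Oasl2 had log2 fold changes of 1.77, 1.85 and 1.54, and the smallest adjusted p of a member was 0.240 (edgeR), for Oasl2. The block ended no member's call. At 15329810 to 16533732 counts per tumor, the depth leaves Oas1d, Oas1e, Oas1f and the interferon ligands, at 3 counts or fewer apart from Ifng in Tmem173iΔmye replicate 1, without a usable fold change.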
